A study of Mus musculus with 163 samples.

Results

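The genes of synaptic vesicle release described here are the 96 genes, of 12187 in the deposited table, whose symbols mark them as synaptotagmins, syntaxins and their binding proteins, SNAP and VAMP proteins, complexins, Munc13, RIM and CAPS priming factors, Rab3 proteins and their regulators, synapsins, SV2 proteins, synaptophysins, synaptogyrins or copines. They were chosen by symbol alone, so the set also takes in 10 Rab proteins outside the Rab3 family, such as *Rab34*, and the clathrin assembly protein *Snap91*. Levels were read in single cells sorted by enhanced green fluorescent protein, which *Pomc* regulatory sequences drive in these transgenic mice (C57/BL6 Tg(Pomc-EGFP)1Low). The mice were males of 7 to 9 weeks that fed freely, and cells came from the medial basal hypothalamus, which holds the arcuate nucleus. The labels tie no cell to an animal or a plate, and the cells together were treated as 1 sample without replicates. Hence no test was run, and a gene is called higher or lower where 2 means of log2RPM (log2 of reads per M reads) differ by at least 1.

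Cells were split by measured peptide genes. Cells with *Agrp*, the orexigenic antagonist of melanocortin receptors, above 10 log2RPM are called *Agrp*-high (48 cells). Those below it with *Pomc*, the precursor of the melanocortin peptides, above 12 log2RPM are called *Pomc*-high (34 cells), and 81 cells remained. *Agrp* stood at 10.12 and 10.29 log2RPM in the cells just above the limit and at 9.99 and 7.15 just below it. *Pomc* stood at 12.20 and 12.25 log2RPM just above its limit and at 11.91 and 11.79 just below.

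A nerve terminal releases transmitter when the vesicle SNARE synaptobrevin zips up with the plasma membrane SNAREs syntaxin and SNAP-25, a step that Munc13 and RIM prepare at the active zone. Synaptotagmins sense the calcium that enters with an action potential, complexins clamp and promote the final step, and Rab3 and the synapsins hold vesicles near the membrane. Neuropeptides such as the melanocortins leave from dense-core vesicles, which share the SNAREs and depend on CAPS priming factors and on a partly different set of synaptotagmins.

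Depth over the 12187 genes, recovered from the read steps of low values, ran from 1.46 to 41.9 M reads per cell, with medians of 8.45 M in *Agrp*-high, 8.13 M in *Pomc*-high and 7.88 M in remaining cells. All 12 neuronal markers looked for were measured, and some differed between groups. In *Agrp*-high minus other cells the neurofilament *Nefl* differed by -2.93, *Rbfox3* by -1.61, *Nefm* by -1.48, *Thy1* by 1.07 and *Elavl4* by 1.06 log2RPM. In *Pomc*-high minus remaining cells *Thy1* differed by -1.66 and *Nefl* by -1.21. Of other cell types' markers, *Vim*, which tanycytes hold, differed by 2.13 in *Pomc*-high cells and *Mag*, an oligodendrocyte gene, by 1.56 in *Agrp*-high cells. The part of these markers in the differences of members was not tested. Markers of oligodendrocytes, their precursors, astrocytes and the pituitary were also present, and tanycyte markers were left out of this count. Of these markers 36 cells held 3 or more above 5 log2RPM, of which 11 were *Agrp*-high, 6 *Pomc*-high and 19 remaining cells. The neuronal marker *Stmn2* was below 7 log2RPM in 12 cells, none of them *Agrp*-high, 4 of them *Pomc*-high and 8 remaining. *Tbx19*, a transcription factor of pituitary corticotrophs, exceeded 5 log2RPM in 8 cells, of which 5 were *Pomc*-high and 3 remaining. Of the *Pomc*-high cells with *Tbx19*, 4 were also low in *Stmn2*. These marks were chosen after values had been seen, and differences in *Pomc*-high cells were also computed without the cells with *Tbx19* or with low *Stmn2*. Summed over the 4 measured of 9 pituitary markers, levels reached 44.6 RPM in *Agrp*-high, 2402 RPM in *Pomc*-high and 17788 RPM in remaining cells. Over the 5 measured of 8 oligodendrocyte markers they reached 645, 234 and 151849 RPM. No marker of the microglial and endothelial lists is listed in the table, so these cell types could not be checked.

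The core of the fusion machine was present in every cell. A member counts as detected in a cell at 5 RPM or more, and 9 members, or 9.38% of the 96 against 5.41% of all genes, were detected in every cell (95% Clopper-Pearson interval 97.8% to 100% of cells, which like all intervals here covers counting error only). They included *Snap25*, the synaptobrevin gene *Vamp2*, the synaptotagmins *Syt4*, *Syt5* and *Syt11*, the small GTPase *Rab3a*, and *Snap47* and *Vamp4*, SNAREs of intracellular membranes. *Snap25* (ENSMUSG00000027273, GRCm38 chr2:136713452-136782428) had lowest, median and highest levels of 7.67, 10.10 and 11.03 log2RPM in *Agrp*-high cells. In *Pomc*-high cells these were 9.03, 10.39 and 11.50, and in remaining cells 5.76, 10.61 and 12.75. The 3 groups overlapped over most of their range, and the lowest cells were remaining cells low in *Stmn2*. *Vamp2* had medians of 8.79, 8.62 and 8.85 log2RPM in the same order. The differences of means of both genes in both comparisons lay between -0.36 and 0.14 log2RPM.

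**Figure D1:**
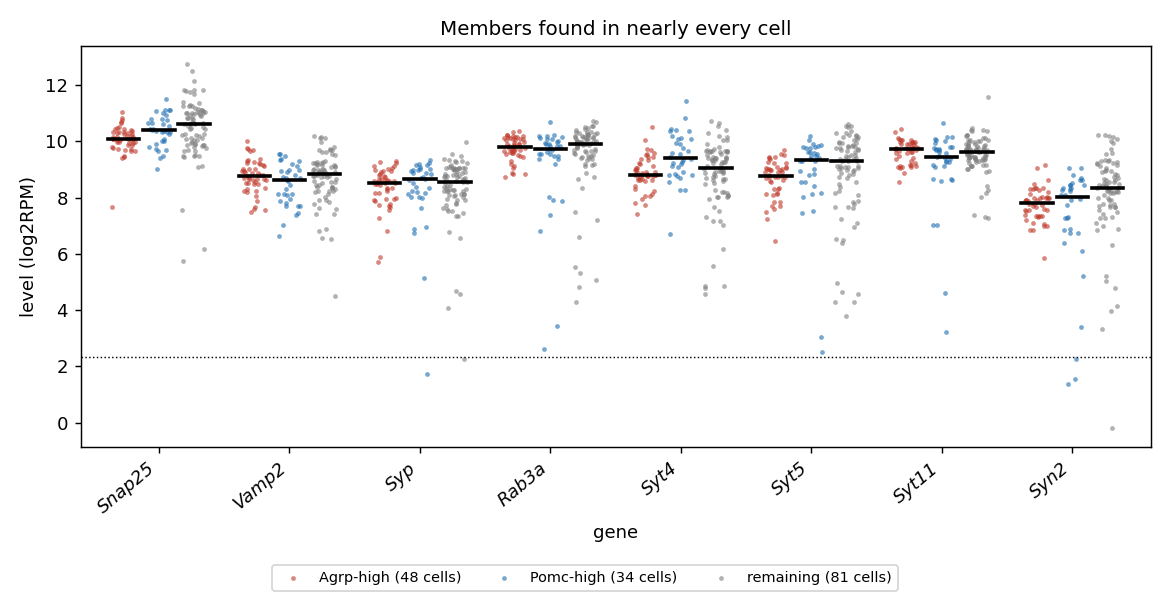
Level in log2RPM (vertical axis) of 8 members found in nearly every cell, with 1 point per cell, in 48 *Agrp*-high, 34 *Pomc*-high and 81 remaining cells. Black bars are medians and the dotted line is 5 RPM. Medians of *Snap25* lie between 10.10 and 10.61 log2RPM in the 3 groups, and most low points are *Pomc*-high or remaining cells.

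The other neuronal SNAREs were less widespread than *Snap25* and *Vamp2*. The syntaxin gene *Stx1a* was detected in 76.7% of cells. *Vamp1*, the second synaptobrevin, was detected in 65 cells, each of which also held *Vamp2*. The widely expressed SNAP-25 relative *Snap23* was found in 39 cells, always beside *Snap25*. Both overlaps were given in advance, because *Vamp2* and *Snap25* were detected in every cell. Detection at 5 RPM is least sure in shallow cells, and 6 cells had under 3 M reads.

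Some relatives within a family were both present in most cells. Of 15 pairs compared, 6 were found together in at least 50% of cells at 5 RPM, and 11 at 1 RPM. *Syt4* and *Syt5*, which lie on dense-core vesicles, were together in every cell. *Rab3a* and *Rab3b* shared all cells but 1, *Rab3a* and *Rab3c* 160 cells, and the synapsins *Syn1* and *Syn2* 150. Each of these genes was widespread, so the shared counts follow largely from the single shares, and no expected number was computed. The active-zone scaffolds *Rims1* and *Rims2* were found alone in 16 and 39 cells and were both missing in 7, and all other cells held both. The CAPS gene *Cadps* was found alone in 86 cells and with *Cadps2* in 66, and only 7 cells held *Cadps2* alone.

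Complexins and the Munc13 genes *Unc13a*, *Unc13b* and *Unc13c* were patchier. *Cplx1* and *Cplx2* shared 43 cells, 25 held *Cplx1* alone, 41 held *Cplx2* alone and 54 held neither. At least 1 of *Unc13a*, *Unc13b* and *Unc13c* was detected in all but 38 cells, and of the 34 *Pomc*-high cells 3 had none (8.82%, 95% interval 1.86% to 23.7%). That compares with 13 of 48 *Agrp*-high cells (27.1%, interval 15.3% to 41.8%) and 22 of 81 remaining cells (27.2%, interval 17.9% to 38.2%). Every cell held 4 to 12 of the 15 synaptotagmins, with medians of 9 in *Agrp*-high, 7 in *Pomc*-high and 8 in remaining cells.

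Over all members, 23 were detected in at least 90% of cells, 36 in 50% to 90%, 31 in 10% to 50% and 6 in under 10%. The shares of all genes in the same classes were 22.2%, 33.8%, 36.4% and 7.57%, and those of members 23.96%, 37.5%, 32.3% and 6.25%. The 6 rarest members were *Rab3d*, *Rab37*, *Cpne9*, *Stx19*, *Unc13c* and *Vamp8*. A cell held 36 to 74 members, with medians of 62 in *Agrp*-high, 58 in *Pomc*-high and 58 in remaining cells. All genes detected per cell had medians of 7286.5, 7132.5 and 6853 in the same order.

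Per length of merged exons, *Snap47* stood highest at a median of 501 RPM per kb over all cells, though 11.6% of its exon bases also belong to *Jmjd4*. *Rab3a* followed at 416 RPM per kb, *Syt5* at 223, *Snap25* at 189, *Syngr3*, a synaptic vesicle membrane protein, at 160 and *Syt11* at 155.6. *Vamp2* stood at 115.9 RPM per kb. The plasma membrane syntaxin *Stx1a* lay far below these SNARE partners, at 9.44 RPM per kb. *Syt1*, the fast calcium sensor of many forebrain terminals, was at 17.8 RPM per kb, and *Cplx1* at 0.506.

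**Figure D2:**
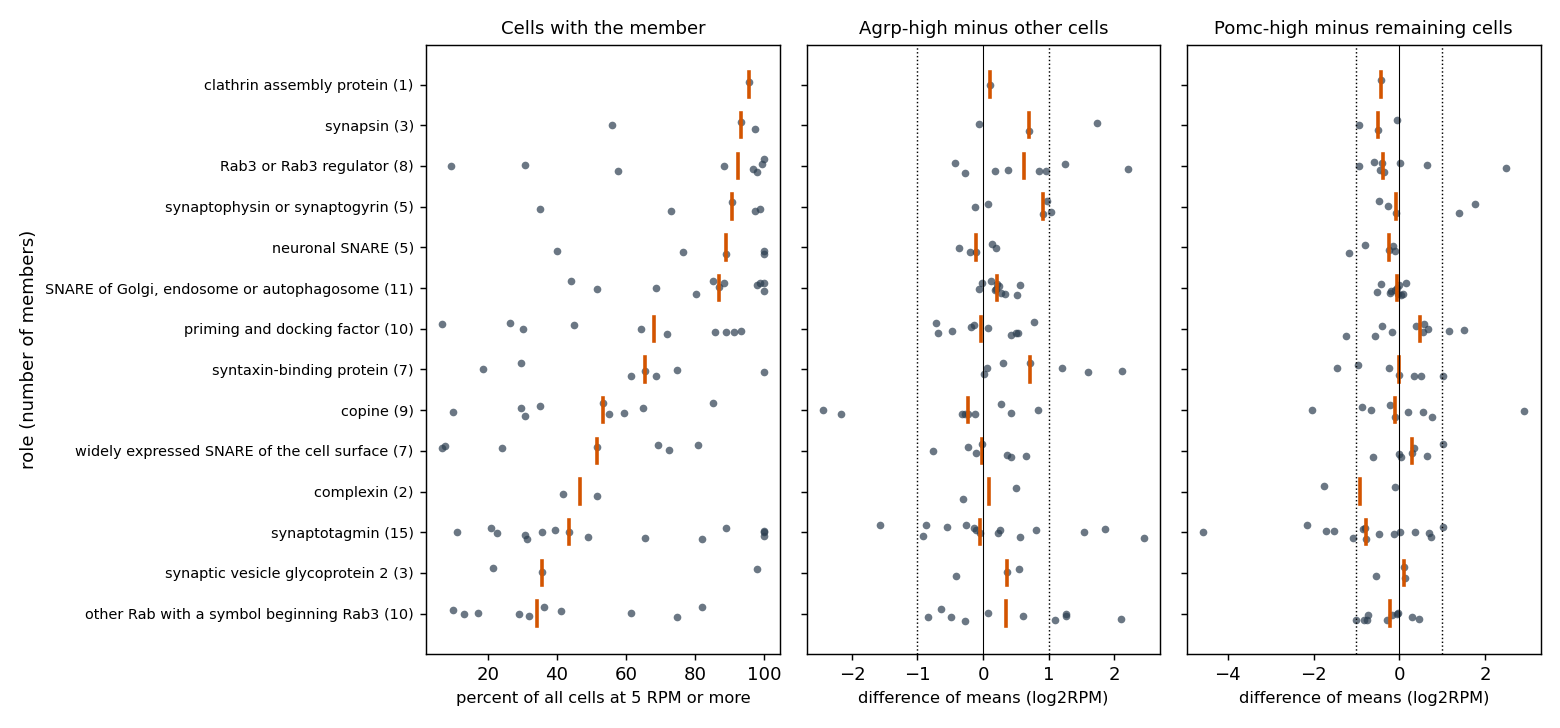
Each point is 1 of the 96 members, placed by role (vertical axis, number of members in brackets). The left panel gives the percent of all cells at 5 RPM or more, and the other panels the difference of means in log2RPM of *Agrp*-high minus other cells and of *Pomc*-high minus remaining cells. Orange bars are medians and dotted lines mark -1 and 1. The lowest point of the right panel is *Syt1* at -4.58.

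The comparison of *Pomc*-high with remaining cells asked which release genes went with high *Pomc* among cells low in *Agrp*. *Syt1* was lower in *Pomc*-high cells by more than any other gene of the table, and the small GTPase *Rab3b*, the copine *Cpne4* and the Munc13-1 gene *Unc13a* were higher. In all, 9 members were higher (9.38%, against 4.5% of all genes) and 10 lower (10.4%, against 5.1% of all genes), together 19.8% against 9.6%. The median difference was -0.11 log2RPM for members and -0.03 for all genes. Without the cells with *Tbx19*, 6 members were higher (against 6.02% of all genes) and 12 lower (against 3.96%). Of the 19 calls 16 held without these cells and *Cadps2*, *Stx4a* and *Stxbp4* lost theirs. Without the cells low in *Stmn2*, 15 held and *Stx4a*, *Stxbp4*, *Syt7* and *Syt17* lost theirs.

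*Syt1* (ENSMUSG00000035864, chr10:108497649-109010982) had lowest, median and highest levels of -0.91, 2.77 and 9.56 log2RPM in *Pomc*-high cells. In remaining cells they were 1.28, 8.68 and 11.40, and in *Agrp*-high cells 1.27, 6.30 and 9.11. The ranges overlapped, but *Pomc*-high cells were mostly low. Of these, 14 of 34 were below 5 RPM, against 2 of 81 remaining and 2 of 48 *Agrp*-high cells. A level of 7 log2RPM was reached by 7 of 34 *Pomc*-high, 64 of 81 remaining and 15 of 48 *Agrp*-high cells. Levels under 7 log2RPM were thus common in *Agrp*-high cells too. Both remaining cells below 5 RPM were cells with *Tbx19*. The means were 3.55 ± 3.39 and 8.13 ± 2.02 log2RPM (SD over 34 and 81 cells), a difference of -4.58, which ranked the lowest among the 12187 genes. At a fixed depth of 3 M reads, *Syt1* was detected in 20 of 33 *Pomc*-high and 75 of 77 remaining cells.

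The 5 *Pomc*-high cells with *Tbx19* were among those with *Syt1*, at 6.30 to 9.56 log2RPM. In the 29 *Pomc*-high cells without *Tbx19* the median was 2.48 log2RPM, 14 were below 5 RPM and 4 reached 7 log2RPM, and the difference of means became -5.48. Among low-*Agrp* cells, *Syt1* did not fall evenly with *Pomc*. Its medians were 9.17 log2RPM in 28 cells with *Pomc* below 6, 8.51 in 35 cells from 6 to 9, 8.68 in 18 cells from 9 to 12, 2.99 in 13 cells from 12 to 14 and 2.69 in 21 cells at 14 or more. By ranges of the cell numbers in the labels, which are not said to be batches, the difference was -5.07 in cells 1 to 66, -8.46 in cells 67 to 98 and -2.19 in cells from 99 on, the range that holds all 5 *Pomc*-high cells with *Tbx19*.

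Neither *Syt1* nor its fast relatives *Syt2* and *Syt9* were detected in 9 of 34 *Pomc*-high cells (26.5%, 95% interval 12.9% to 44.4%). The same held for 1 of 81 remaining cells (1.23%, interval 0.0313% to 6.69%) and for 2 of 48 *Agrp*-high cells (4.17%, interval 0.509% to 14.3%). *Syt2* was detected in 18 cells and *Syt9* in 37, and of the 14 *Pomc*-high cells without *Syt1*, 5 held either of them. *Syt4* and *Syt5*, which lie on dense-core vesicles, did not pass a difference of 1 between all *Pomc*-high and all remaining cells. *Syt4* had medians of 9.41 and 9.05 log2RPM in these groups and *Syt5* of 9.33 and 9.29. *Syt4* differed by 1.15 in cells 1 to 66, -0.31 in cells 67 to 98 and 0.88 in cells from 99 on.

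*Rab3b* (ENSMUSG00000003411, chr4:108879062-108972077) is a Rab3 isoform of neuroendocrine and aminergic cells. Its lowest, median and highest levels were 7.35, 9.72 and 11.58 log2RPM in *Pomc*-high cells, 1.79, 7.68 and 11.19 in remaining cells and 5.86, 8.16 and 9.47 in *Agrp*-high cells. No *Pomc*-high cell was in the lower part of the range, over the whole of which the remaining cells spread. The means were 9.74 ± 1.02 and 7.25 ± 1.99 log2RPM (SD over 34 and 81 cells), a difference of 2.50, or 2.46 without the cells with *Tbx19*, and 2.88, 2.69 and 2.14 in the 3 ranges of cell numbers. Medians by the same *Pomc* steps were 7.59, 6.998, 8.07, 9.28 and 9.95 log2RPM, so *Rab3b* was higher in each step from 6 log2RPM on. *Rab3a* had medians of 9.72 and 9.92 and *Rab3c* of 7.92 and 7.97 log2RPM in *Pomc*-high and remaining cells, and neither passed a difference of 1. The rare isoform *Rab3d* was detected in 15 cells.

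**Figure D3:**
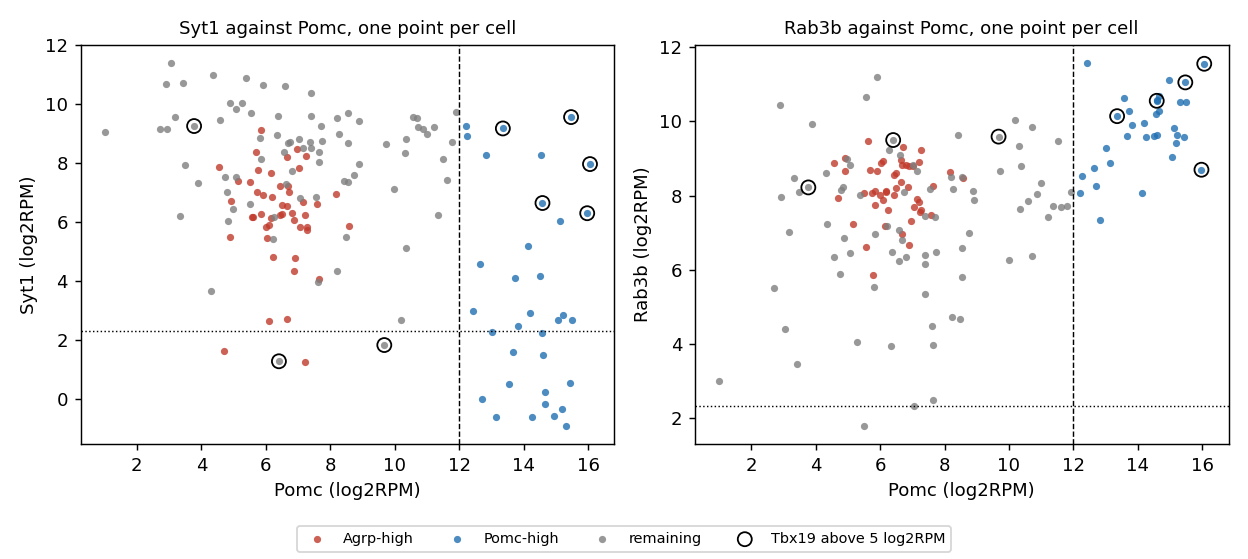
*Syt1* (left) and *Rab3b* (right) against *Pomc*, all in log2RPM, with 1 point per cell coloured by group and rings around the 8 cells with *Tbx19* above 5 log2RPM. The dashed line is the *Pomc* limit of 12 and the dotted line 5 RPM. Right of the limit, 14 of 34 cells lie below 5 RPM of *Syt1*, while *Rab3b* stays at or above 7.35 log2RPM.

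The 250 bases before the start sites of these genes are shown because *Syt1* and *Rab3b* differed in opposite directions in the same cells. Both are from RefSeq (GRCm38.p6), read 5′ to 3′ on the gene's own strand, and of the 2 windows listed for *Syt1* the one nearest its 5′ end was taken. The *Syt1* window is chr10:109010976-109011225 on the minus strand and the *Rab3b* window chr4:108878820-108879069 on the plus strand. Capitals mark matches, on either strand, to the motifs searched: the Sp1 box GGGCGG, the TATA box TATAAA, the cAMP response element TGACGTCA, the FoxO motif GTAAACA and the E-box CAGCTG.
Syt1: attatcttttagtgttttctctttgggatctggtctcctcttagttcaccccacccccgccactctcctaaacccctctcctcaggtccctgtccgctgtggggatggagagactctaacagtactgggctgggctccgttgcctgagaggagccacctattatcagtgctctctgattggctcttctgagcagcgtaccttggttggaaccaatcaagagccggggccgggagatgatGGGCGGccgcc
Rab3b: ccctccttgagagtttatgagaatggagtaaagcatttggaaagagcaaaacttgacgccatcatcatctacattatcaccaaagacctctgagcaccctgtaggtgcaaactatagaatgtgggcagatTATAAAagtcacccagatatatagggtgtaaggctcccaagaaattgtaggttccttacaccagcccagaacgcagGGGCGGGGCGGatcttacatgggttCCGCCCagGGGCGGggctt
*Syt1* held 1 Sp1 box, and *Rab3b* held 4, of which a pair overlap by 1 base, and 1 TATA box. No match to the other motifs was found in either window. A Sp1 box was found in 32.7% of 32851 windows of this length and a TATA box in 12.4%. Among the 74 members with a window, 54 held a Sp1 box and 4 a TATA box. Members were counted by 1 window each, while the 32851 windows were not limited to 1 per gene or to genes of the deposited table. The shares are therefore not like for like. A match is a description of letters and not a binding site.

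*Cpne4* (ENSMUSG00000032564, chr9:104547285-105034544) is a copine, a calcium-dependent phospholipid-binding protein. Its lowest, median and highest levels were -0.91, 5.29 and 8.29 log2RPM in *Pomc*-high cells, -0.91, -0.07 and 8.09 in remaining cells and -0.91, -0.45 and 3.60 in *Agrp*-high cells. It was detected in 25 of 34, 22 of 81 and 1 of 48 cells. Its pattern was therefore close to present or absent, and both comparisons passed 1. The means were 4.28 ± 2.97 and 1.36 ± 2.82 log2RPM (SD over 34 and 81 cells), and the differences 2.92 for *Pomc*-high minus remaining cells and -2.44 for *Agrp*-high minus other cells. Without the cells with *Tbx19* the first became 3.33, and within the 3 ranges of cell numbers it was 4.94, 2.29 and 2.25.

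Another copine, *Cpne6*, which is found in dendritic spines, went the other way. Its median was 5.62 log2RPM in *Pomc*-high, 7.37 in remaining and 6.84 in *Agrp*-high cells, and its difference of means was -2.04, or -1.29 without the cells with *Tbx19*, in which it did not exceed 1.18. The priming factor *Unc13a* had lowest, median and highest levels of -0.91, 4.93 and 7.06 log2RPM in *Pomc*-high cells and -0.91, 2.90 and 7.24 in remaining cells. It was detected in 28 of 34 and 49 of 81 cells, and its difference of 1.50 was 1.77 in cells 1 to 66, 0.03 in cells 67 to 98 and 2.30 in cells from 99 on. *Cadps2* differed by 1.15, or 0.75 without the cells with *Tbx19*, and by -1.45 in cells 67 to 98.

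The other members higher in *Pomc*-high cells were the synaptogyrin *Syngr2* at 1.76, the synaptophysin-like *Sypl* at 1.40, *Syt17* at 1.03, *Stxbp4* at 1.02 and the plasma membrane syntaxin *Stx4a* at 1.01. *Syt17* had the same median of -0.11 log2RPM in both groups, and its difference was 0.72 without the cells low in *Stmn2*. Without the cells with *Tbx19* the difference of *Stxbp4* was 0.96 and that of *Stx4a* 0.64, and without those low in *Stmn2* they were 0.88 and 0.82. *Syngr2* differed by 1.73 and *Sypl* by 1.54 without the cells with *Tbx19*. *Stx4a* shares 1 locus of the table with another gene, and *Syngr2* shares 1 with *Afmid*, *Tk1* and *Gm20708*. Since the kit does not mark strand, reads of such neighbours may be exchanged.

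The other members lower in *Pomc*-high cells held 4 more synaptotagmins, *Syt3* at -2.16, *Syt6* at -1.71, *Syt13* at -1.52 and *Syt7*, a slow calcium sensor, at -1.08. Without the cells with *Tbx19* these were -1.92, -1.70, -1.12 and -1.04. The call of *Syt7* was lost in 6 of 12 alternatives, with -0.92 without the cells low in *Stmn2*. With *Syt1* this made 5 of 15 synaptotagmins lower (against 5.1% of all genes) and 1 higher (against 4.5%), with a median of -0.78 log2RPM over the family. *Cplx1* differed by -1.76, or -1.46 without the cells with *Tbx19*, and was detected in 8 of 34 *Pomc*-high and 36 of 81 remaining cells. Its partner *Cplx2* differed by -0.10. *Stxbp6*, a protein that binds SNAREs in place of synaptobrevin, differed by -1.45, *Unc13c* by -1.24 with no detection in *Pomc*-high cells, and *Vamp1* by -1.18. Taken as 3 counts, 0 of 34 *Pomc*-high cells allows a share of up to 8.82% for *Unc13c*. *Stxbp6* and *Unc13c*, detected in 20.99% and 13.6% of remaining cells, were named after their values were seen.

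**Figure D4:**
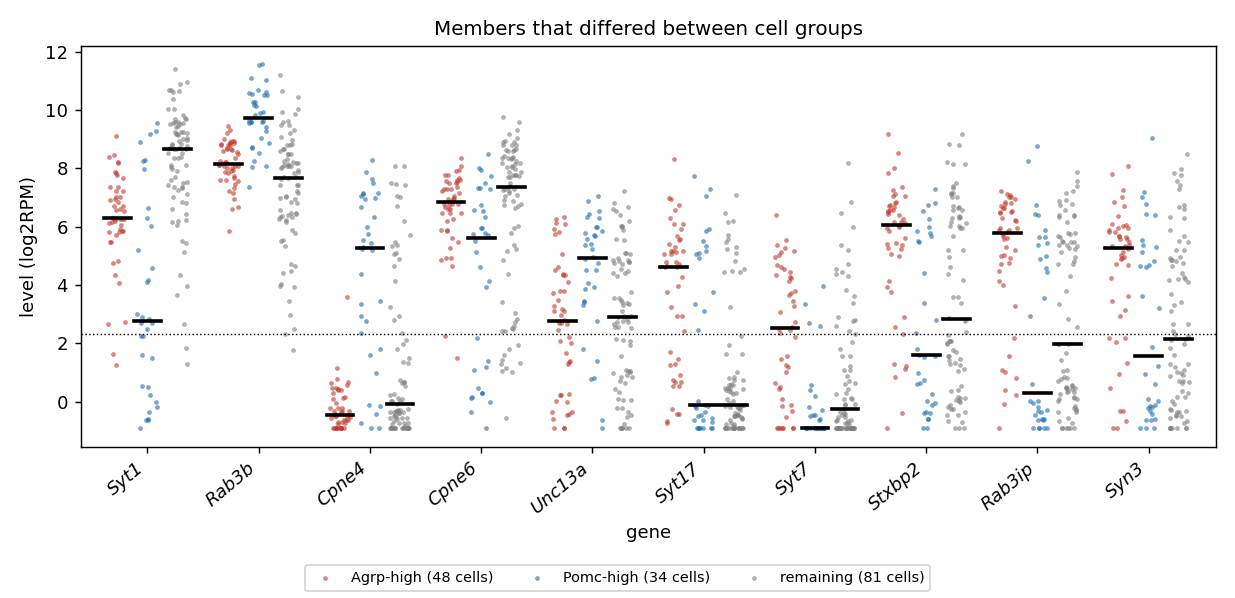
Level in log2RPM (vertical axis) of 10 members that differed between groups, with 1 point per cell in 48 *Agrp*-high, 34 *Pomc*-high and 81 remaining cells. Black bars are medians and the dotted line is 5 RPM. The *Syt1* bar of *Pomc*-high cells stands at 2.77 against 8.68 in remaining cells, and the *Syt17* bar of *Agrp*-high cells at 4.63 against -0.11 in both other groups.

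*Agrp*-high cells were set against all other cells to ask which release genes went with the orexigenic peptide. Here 14 members were higher (14.6%, against 8.65% of all genes) and 3 lower (3.13%, against 2.94% of all genes), together 17.7% against 11.6%. The median difference was 0.19 log2RPM both for members and for all genes, so genes as a whole were shifted upwards. Less this shift, 12 members were higher (12.5%, against 5.78% of all genes) and 6 lower (6.25%, against 4.32%). Because both comparisons use the *Pomc*-high and remaining cells, they are not independent of each other.

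The largest of these differences was *Syt17*, a synaptotagmin without calcium-binding residues, at 2.46 log2RPM. *Syt17* (ENSMUSG00000058420, chr7:118381855-118443552) had lowest, median and highest levels of -0.72, 4.63 and 8.32 log2RPM in *Agrp*-high cells, with a mean of 3.70 ± 2.46 (SD over 48 cells) against 1.24 ± 2.59 in the others. The lowest, median and highest were -0.91, -0.11 and 7.73 in *Pomc*-high and -0.91, -0.11 and 7.08 in remaining cells. It was detected in 33 of 48 *Agrp*-high cells, against 15 of 34 and 16 of 81 in the others, so most cells outside the group lacked it. *Syt7* was detected in 27 of 48, 4 of 34 and 19 of 81 cells and differed by 1.85, and *Syt6* by 1.54. *Syt10*, a synaptotagmin of peptide-containing vesicles, differed by -1.57.

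*Rab3ip*, an exchange factor first found as a partner of Rab3, had a median of 5.78 log2RPM in *Agrp*-high cells (-0.91 to 7.22), 0.31 in *Pomc*-high (-0.91 to 8.76) and 1.98 in remaining cells (-0.91 to 7.88). Its difference was 2.21, and 1.61, 5.31 and 2.18 in the 3 ranges of cell numbers, of which the second holds only 5 *Agrp*-high cells. Its relative *Rab3il1* differed by 1.25. Of the Rab proteins outside the Rab3 family 4 of 10 were higher (against 8.65% of all genes), with *Rab34* at 2.10, *Rab36* at 1.27, *Rab33a* at 1.27 and *Rab33b* at 1.09. The call of *Rab33b* was lost in 6 of 12 alternatives.

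Among syntaxin-binding proteins 3 of 7 were higher (against 8.65% of all genes) and none lower (against 2.94%). *Stxbp2*, the Munc18 isoform known from cytotoxic and mast cells, had lowest, median and highest levels of -0.91, 6.08 and 9.19 log2RPM in *Agrp*-high cells. They were -0.91, 1.59 and 7.29 in *Pomc*-high and -0.91, 2.85 and 9.19 in remaining cells. It was detected in 42 of 48, 15 of 34 and 43 of 81 cells, and differed by 2.12, or by 1.56, 0.55 and 2.11 in the ranges of cell numbers. The tomosyn gene *Stxbp5*, which competes with synaptobrevin for the syntaxin complex, differed by 1.60. *Stxbp4* differed by 1.20, or by 1.49, -0.26 and 0.72 in the ranges of cell numbers, and kept its call in 9 of 12 alternatives. It was also higher in *Pomc*-high than in remaining cells, as given above.

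*Syn3*, the synapsin best known from immature neurons, differed by 1.74 with a median of 5.27 log2RPM in *Agrp*-high cells, 1.56 in *Pomc*-high and 2.15 in remaining cells. Of its exon bases 14.1% also belong to *Timp3*. *Syn1* and *Syn2* differed by 0.70 and -0.06. The synaptogyrin *Syngr3* differed by 1.03 and lost this call without the shift of all genes, as well as without the cells with *Tbx19*, at 0.84, or low in *Stmn2*, at 0.54. It was the only one of the 17 calls in *Agrp*-high cells that either omission ended. Beside *Cpne4*, *Cpne2* was lower, with medians of 0.42 log2RPM in *Agrp*-high, 4.20 in *Pomc*-high and 4.59 in remaining cells and a difference of -2.16. None of 5 neuronal SNAREs, 2 complexins, 10 Munc13, RIM or CAPS genes and 3 SV2 genes passed a difference of 1 in *Agrp*-high cells. Of all genes 11.6% passed in either direction, and at that share few members of sets this small would pass.

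Among members outside these calls, the 11 SNAREs of Golgi, endosome and autophagosome, from *Stx5a* and *Stx6* to *Vamp4*, lay between -0.06 and 0.57 log2RPM in *Agrp*-high cells and between -0.51 and 0.15 in *Pomc*-high cells. *Sv2a*, the vesicle glycoprotein that binds levetiracetam, was detected in 160 cells with medians of 6.89, 6.92 and 6.98 log2RPM in *Agrp*-high, *Pomc*-high and remaining cells. *Sv2b* and *Sv2c* were found in 35 and 58 cells, *Sv2c* always beside *Sv2a*. *Syp*, the vesicle protein synaptophysin, had medians of 8.52, 8.66 and 8.57 log2RPM. *Cpne1* shares 83.3% of its exon bases with *Gm28036*, and its level cannot be told apart from that gene's.

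Partners of release that are not members were also compared. Of 30 such genes, 1 was higher and 1 lower in *Agrp*-high cells (against 8.65% and 2.94% of all genes), and 2 were higher and 3 lower in *Pomc*-high cells (against 4.5% and 5.1%). In *Agrp*-high cells the scaffold *Lin7a* was higher at 2.32 and the scaffold kinase *Cask* lower at -1.29. In *Pomc*-high cells *Rab27a*, a Rab of secretory granules, was higher at 1.50 and *Lin7a* at 1.05, and the calcium sensor *Doc2a* was lower at -1.57, with *Scamp5* and *Lin7b* at -1.04 each. Of 16 genes of vesicle retrieval, 1 was higher and 1 lower in *Agrp*-high cells (against 8.65% and 2.94% of all genes). These were the dynamin *Dnm3* at 1.17 and the endophilin *Sh3gl2* at -2.57. None passed in *Pomc*-high cells (against 4.5% and 5.1%).

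The 12 cells with *Stmn2* below 7 log2RPM held many release genes at lower levels, as they did genes in general. Relative to the other cells, 50 of 96 members were lower (52.1%, against 36.4% of all genes) and 10 higher (10.4%, against 9.89%), and the median difference was -1.07 log2RPM for members and -0.60 for all genes. *Syngr3* differed by -4.91, *Cpne6* by -4.88, *Syn1* by -4.10 and *Rab3a* by -3.66, while *Snap25* differed by -1.07 and *Rab3b* by 0.29. *Vamp8*, an endosomal and secretory SNARE named here after its values were seen, was higher by 5.38 and *Snap23* by 3.46. *Vamp8* was detected in 12 cells, of which 8 were low in *Stmn2*.

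In the 5 *Pomc*-high cells with *Tbx19*, *Vamp8* lay between 6.68 and 8.57 log2RPM, and in the 29 other *Pomc*-high cells it did not exceed 0.57. *Snap25* was present in both, at medians of 10.96 and 10.38 log2RPM.

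**Figure D5:**
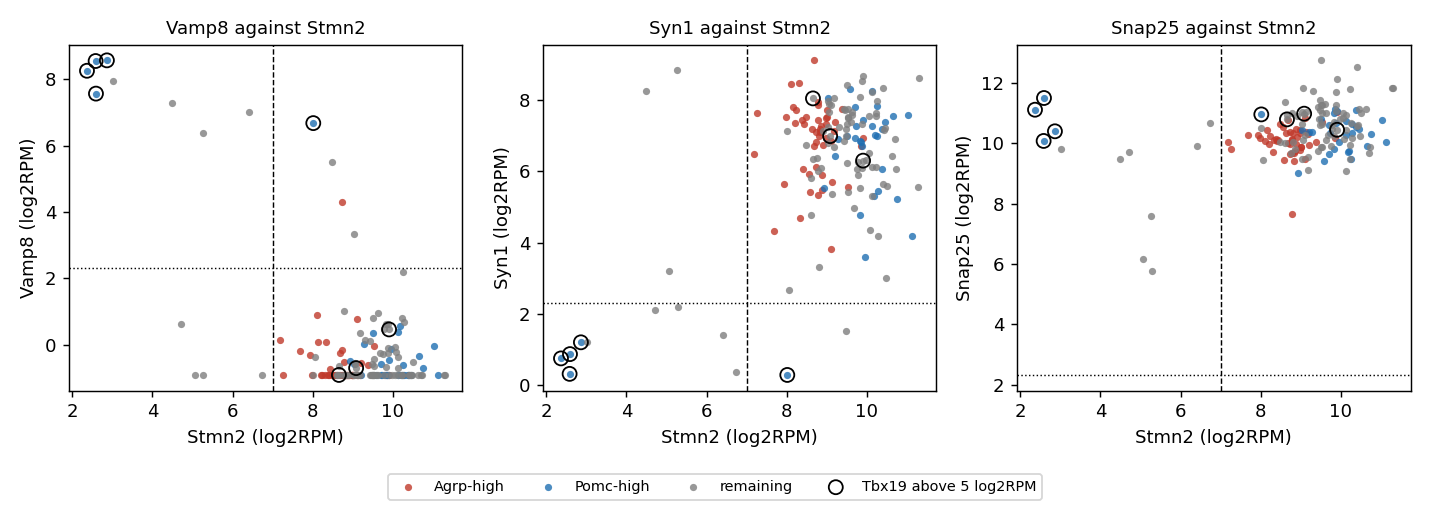
*Vamp8*, *Syn1* and *Snap25* (vertical axes) against the neuronal marker *Stmn2*, all in log2RPM, with 1 point per cell coloured by group and rings around the 8 cells with *Tbx19* above 5 log2RPM. The dashed line is 7 log2RPM of *Stmn2* and the dotted line 5 RPM. Of 12 cells left of the dashed line, 8 lie above 5 RPM of *Vamp8*, and all 12 hold *Snap25*.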

How the data were processed

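Single cells from papain-digested medial basal hypothalamus were sorted into plates, and libraries were made with SMART-Seq v4 and Nextera XT and read as single ends. The authors aligned reads to GRCm38 (Ensembl 74) with TopHat2 2.0.11, took counts per gene from Cufflinks 2.2.1 and used edgeR and limma for normalization, whose versions are not given in the sources used here. The values were deposited as log2 RPM with a common floor of -0.91 log2RPM (0.532 RPM), which stands for 0 reads. Batch correction is named for the study, but 99.3% of low values (1 to 20 reads) lay within 0.1 of a whole read, so they show no gene-wise shift. Read steps gave the depths.

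Differences are between means of the deposited log2RPM. Lengths are merged exons of GENCODE M21. Shares carry Clopper-Pearson 95% intervals. The members, the gene lists and the rule for named genes were chosen with earlier results of these data known. The rule took core members by role, called members detected in 25% or more of the higher group's cells (at most 15 per direction), the 10 of largest SD, members of pairs and the 3 largest differences of each partner list. Ranges of cell numbers follow earlier seen changes in background *Agrp*. Other alternatives were group medians, a floor of 1 or 5 RPM, only genes found in 10% of cells, other limits, centring, thinning to 3 M reads and leaving out marked or shallow cells. Scripts were tested on simulated data. Python 3.11.15, numpy 2.4.6, pandas 2.3.3, scipy 1.17.1 and matplotlib 3.10.9 were used. Values of some members and markers are not reported here.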

Additional observations from a re-analysis of the deposited data

How the results depend on the processing

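With 5 RPM added in place of the deposited floor, 6 members were higher in *Agrp*-high cells (against 2.54% of all genes), and 3 were higher and 4 lower in *Pomc*-high cells (against 1.33% and 0.919%). The number lower in *Agrp*-high cells became 6 (6.25%) when cells were centred on common genes and when differences were averaged within ranges of cell number. It also became 6 when the median difference of all genes was subtracted, which was chosen after seeing the data. The share of all genes lower rose as well, from 2.94% to between 4.32% and 5.45% under these settings. At 1 RPM, 11 pairs were found together in at least 50% of cells. The other counts stayed within 1.5 times of those reported. *Syt17* in *Pomc*-high cells was the only named gene whose called difference changed sign, to -0.0055 between group medians. Of 34 called differences of named genes, 15 stayed at 1 or more under every alternative run. Those of *Syt1* ranged from -5.91 to -3.58, of *Rab3b* from 2.05 to 2.61, of *Cpne4* in *Pomc*-high cells from 1.71 to 5.36, of *Syt17* in *Agrp*-high cells from 1.26 to 4.74, of *Rab3ip* from 1.32 to 3.82 and of *Stxbp2* from 1.37 to 3.73. Leaving out cells with *Tbx19* or with low *Stmn2* was also chosen after seeing the data. No paired analysis was possible because all cells carry 1 group label and no result comes from a test. Detection of members near 5 RPM is limited by depth in the 6 cells under 3 M reads.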
